A study of Sminthopsis crassicaudata with 9 samples.

Results

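The insulin-like growth factor (IGF) system was described in the newborn face of the fat-tailed dunnart through 10 genes chosen by name: the ligands IGF1 and IGF2, the receptors IGF1R and IGF2R, the binding proteins IGFBP2, IGFBP3, IGFBP4, IGFBP5 and IGFBP6, and the RNA-binding protein gene IGF2BP1. Of these, 8 had a row in a table of 21703 gene models, of which 14169 carry a symbol, and 7 had reads in any library. IGFBP4 and IGF2BP1 were not analysed here. All samples were facial prominences of dunnart pouch young collected within a day of birth. H3K4me3 and H3K27ac ChIP-seq had 2 replicates each, made from pools of facial tissue of 26 and 27 young by the labels. The input of each pool served as control. RNA-seq had 3 libraries, FP1, FP2 and FP3, each a pool of 2 young. No condition, age or tissue was compared with another, so the values are levels with their spread between pools, and no test between groups was possible.

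The IGF ligands are small secreted hormones that promote growth and survival of cells, and IGF2 is the main one of fetal life. They act through IGF1R, a tyrosine kinase receptor, whereas IGF2R takes up IGF2 and sends it to lysosomes for breakdown. Secreted binding proteins hold the ligands outside the cell and either limit or prolong their action. H3K4me3 is a histone mark of active promoters, and H3K27ac marks active promoters and enhancers.

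RNA levels are given in TPM, the counts divided by the summed exon length of each model and scaled to the same total in every library, so that levels can be compared between genes. The libraries held between 16096971 and 17419099 counts. Markers of facial mesenchyme were above 1 TPM for 9 of 9 genes, with sums of 2556, 3745 and 1905 TPM in FP1, FP2 and FP3. Skeletal muscle markers summed to 27167, 22780 and 30525 TPM (10 of 10 genes) and markers of epithelium and periderm to 13747, 9567 and 14928 TPM (8 of 8 genes in the table). Cartilage markers were low, with 6 of 8 above 1 TPM and sums of 70.1, 175 and 71.1 TPM. Markers of neurons and brain, SOX2 included, summed to 141, 154 and 143 TPM (7 of 7). Endothelial markers summed to 111, 82.0 and 75.4 TPM (5 of 5) and red blood cell markers to 176, 294 and 212 TPM (4 of 4). Macrophage markers summed to 15.1, 19.9 and 9.16 TPM (2 of 5, with AIF1 at 0) and liver markers to 1.04, 1.87 and 4.54 TPM (0 of 2).

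Of the 8 members in the table, 7 were above 1 TPM in all 3 libraries, where 56.5% of all models and 75.3% of genes with a symbol were. The system was dominated by RNA for binding proteins. IGFBP2, IGFBP3, IGFBP5 and IGFBP6 together had 4912, 4982 and 5355 TPM, a mean of 5083 ± 238 TPM (SD, n = 3). IGF2 had 778 ± 318 TPM and both receptors together 27.4 ± 11.3 TPM (SD, n = 3 each). All members together made up 0.540%, 0.613% and 0.613% of the TPM of FP1, FP2 and FP3.

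**Figure D1:**
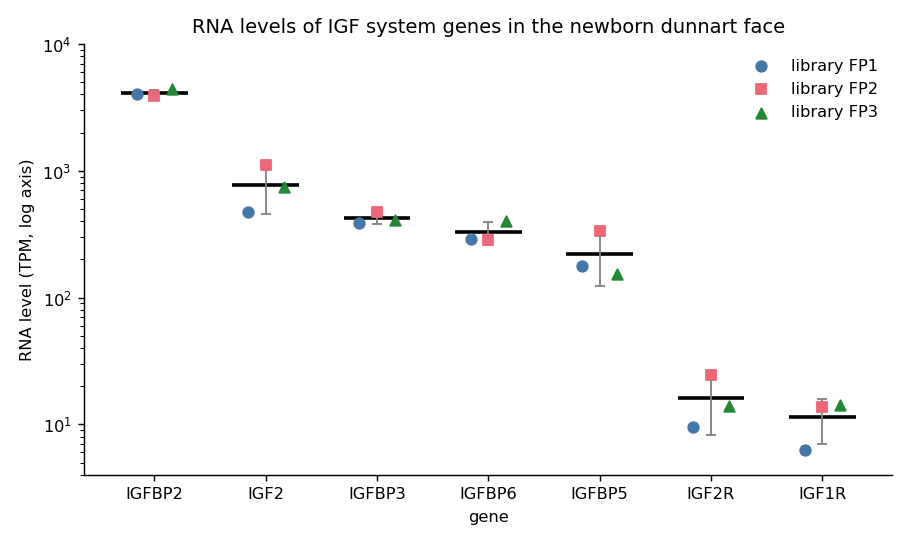
RNA level in TPM (log axis) of the 7 members with reads in 3 libraries of newborn dunnart face. Points are libraries, horizontal lines are means and error bars are SD (n = 3). IGFBP2 lies near 4111 TPM, IGF2 and the other binding proteins between 154 and 1110 TPM, and both receptors below 25 TPM.

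Of the ligands, IGF2 had 476 TPM in FP1, 1110 TPM in FP2 and 748 TPM in FP3, from 2986, 5730 and 4216 reads. It ranked 140 among the 14158 genes with a symbol and a usable count. FP2 was 2.33 times as high as FP1. The IGF2 model (scaffold00017:51452184-51453975 of the study's own dunnart assembly, minus strand) has 2 exons of 692 bp in all, against a median of 2914 bp over genes with a symbol. Only 6.34% of those genes have models as short, and the IGF2 level is that of the part of the transcript which the model holds.

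IGF1 had 0 reads in all 3 libraries, but its model cannot stand for the gene. It is a single exon of 69 bp at scaffold00146:240129-240197. None of the 10 genes that flank IGF1 in the RefSeq annotation of the dunnart lies on that scaffold, although only 1 of the 10 is in the table. The 5 nearest models, SUPT20H, EXOSC8, ALG5, SMAD9 and RFXAP, are all on another chromosome than IGF1 in RefSeq. For the other members with a row, 8 to 10 of their 10 RefSeq neighbours lay on the same scaffold. No level of IGF1 RNA is therefore given, and the marks around its model are not described as those of IGF1.

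Both receptors had clearly detected RNA, far below that of IGF2 and the binding proteins. Their levels were near the median of 12.8 TPM for genes with a symbol, with ranks of 7411 for IGF1R and 6414 for IGF2R among 14158. IGF1R (scaffold00038:12891105-13251975, 21 exons) had 6.29, 13.6 and 14.2 TPM in FP1, FP2 and FP3, from 302, 537 and 614 reads. IGF2R (scaffold00045:4861442-4998314, 48 exons) had 9.46, 24.7 and 14.0 TPM. The receptors overlapped in level, with IGF2R over IGF1R at 1.50, 1.82 and 0.984 in the 3 libraries. IGF2 RNA was 30.2, 29.0 and 26.5 times the summed receptor RNA, a ratio that varied 1.14-fold between libraries while IGF2 itself varied 2.33-fold and the receptor sum 2.43-fold.

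IGFBP2, which can bind both ligands, was the most abundant member in every library. IGFBP2 (scaffold00001:15569691-15600860, 4 exons) had 4057, 3884 and 4392 TPM in FP1, FP2 and FP3 and ranked 13 among genes with a symbol. It supplied 75.1%, 63.4% and 71.6% of the summed TPM of all members. Its level was 8.53, 3.50 and 5.87 times that of IGF2, and the 2 genes did not overlap over libraries.

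IGFBP3, the main carrier of IGFs in the blood of adult mammals, had 387, 475 and 408 TPM (scaffold00015:22666641-22676888, rank 244). IGFBP6, which prefers IGF2 over IGF1, had 292, 287 and 402 TPM (scaffold00109:2476805-2481693, rank 323). IGFBP5, a binding protein of muscle, bone and connective tissue, had 176, 337 and 154 TPM (scaffold00001:15535031-15562493, rank 518). IGFBP3 was above IGFBP6 in 3 of 3 libraries, but their ranges overlapped. IGFBP6 was above IGFBP5 in 2 of 3 libraries, and FP2 had the opposite order.

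The order of mean levels was thus IGFBP2, IGF2, IGFBP3, IGFBP6, IGFBP5, IGF2R and IGF1R, and the first 3 places were the same in each library. The ranges over libraries did not overlap for the steps from IGFBP2 to IGF2, from IGF2 to IGFBP3 and from IGFBP5 to IGF2R. The last was a 13.9-fold difference in mean TPM. The ranges of IGF2 and IGFBP3 were barely apart, with 476 TPM for IGF2 in FP1 and 475 TPM for IGFBP3 in FP2. The neighbours IGFBP3 and IGFBP6, IGFBP6 and IGFBP5, and IGF2R and IGF1R were not separated by their ranges. Summed binding protein RNA was 10.3, 4.49 and 7.16 times that of IGF2, and without IGFBP2 these ratios were 1.80, 0.990 and 1.29.

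Members differed in how steady they were between pools. IGFBP2 varied 1.13-fold between its highest and lowest library, and 96.8% of the 62 genes within 2-fold of its mean level varied at least as much (median 1.50-fold). IGFBP3 varied 1.23-fold and IGFBP6 1.40-fold, against medians of 1.36-fold and 1.35-fold for genes of like level. IGF2, IGF2R and IGFBP5 varied 2.33-fold, 2.61-fold and 2.19-fold, and all 3 were highest in FP2. For genes of like level the medians were 1.37-fold, 1.53-fold and 1.34-fold, and 4.32%, 5.37% and 4.21% of them varied at least as much. IGF1R varied 2.26-fold, with FP3 highest and FP1 lowest, where 11.9% of 3705 genes of like level varied as much.

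**Figure D2:**
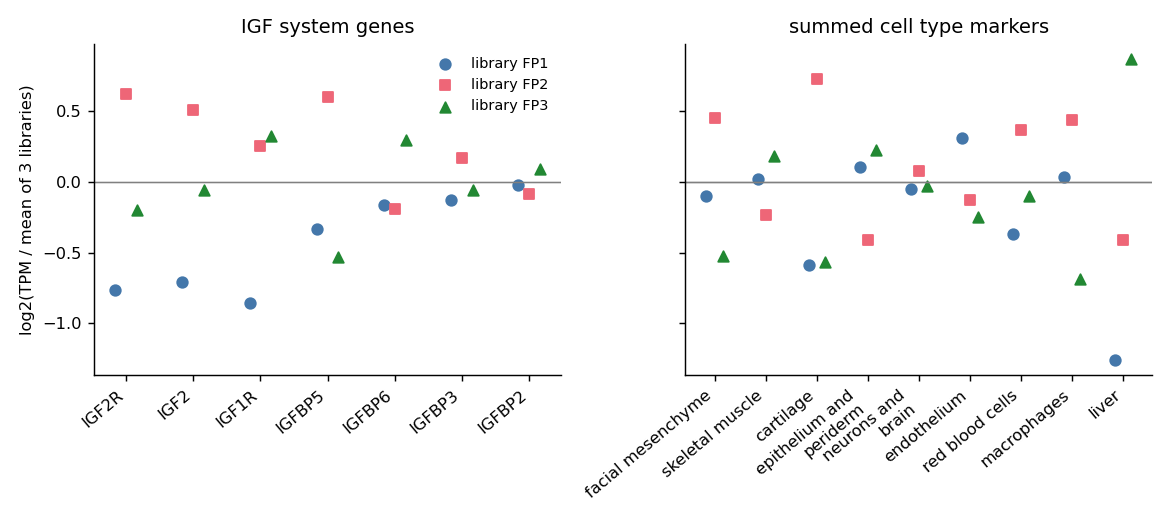
The log2 ratio of each library to the mean of 3 libraries, for 7 members (left) and for summed cell type markers (right). FP2 is highest for IGF2R, IGF2 and IGFBP5 and for 5 of the 9 marker sums. These sums are facial mesenchyme, cartilage, neurons and brain, red blood cells and macrophages. IGFBP2 stays close to 0 in all libraries.

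FP2 was also the highest library for 58.6% of the 6986 genes with a symbol above 10 TPM. FP2 had the highest sums of mesenchyme, cartilage, neuron and brain, red blood cell and macrophage markers. It had the lowest sums of muscle and of epithelial markers. Several of these sums rested on few genes. COL1A1 and COL3A1 made up 3155 of the 3745 TPM of mesenchyme markers in FP2, and the other 7 markers together had 669, 590 and 459 TPM in FP1, FP2 and FP3. FP2 was the highest library for 5 of the 9 mesenchyme markers, while PRRX2, TWIST1 and TWIST2 were highest in FP1 and MSX1 in FP3. Of the epithelial markers, KRT14 and KRT17 carried the sum, and the other 6 together had 516, 646 and 615 TPM, highest in FP2. FP2 was highest for 7 of 8 cartilage markers and lowest for 7 of 10 muscle markers. It was highest for only 2 of 7 markers of neurons and brain, while 4 were highest in FP1. Of the 4 red blood cell markers, 2 were highest in FP2, and ALAS2 made up 264 of the 294 TPM there. FP2 was highest for 3 of the 4 macrophage markers with reads. The part of these marker differences in the levels of IGF2, IGF2R and IGFBP5 was not tested. In bulk tissue, fewer cells of a type and less RNA per cell cannot be told apart. The genes whose log2(TPM + 1) values lay closest to those of IGF2 over the 3 libraries were ECM1 (522, 987 and 745 TPM), SBSN (416, 1126 and 789 TPM) and POSTN (575, 1010 and 683 TPM), with largest differences of 0.17, 0.19 and 0.27.

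Around the members, 58 further genes of the pathway were listed, of which 49 were in the table. Of these, 44 were above 1 TPM in all libraries (89.8%, against 75.3% of genes with a symbol), with a median of 19.8 TPM against 12.8 TPM. Among other secreted partners, IGFBP7, a related protein of low IGF affinity, had 152, 146 and 152 TPM. IGFBP1, the binding protein made mostly by liver in adult mammals, had 1.35, 1.37 and 0.753 TPM, although it starts 46.8 kb from IGFBP3. GHR, the growth hormone receptor, had 19.1 ± 3.80 TPM, and GHRH had 0.060, 0.073 and 0 TPM in FP1, FP2 and FP3. INSR, the insulin receptor and close relative of IGF1R, had 7.90, 18.3 and 12.3 TPM, lowest in FP1 like both members of the receptor group. FP1 was also the lowest library for 40.6% of the 6986 genes with a symbol above 10 TPM.

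Of the proteases that cut binding proteins and their inhibitors, 5 of 6 in the table were above 1 TPM in all libraries. MMP2, a matrix metalloproteinase, was highest with 99.9, 154 and 64.1 TPM. PAPPA2, which cleaves IGFBP3 and IGFBP5 in mammals, was lowest by mean and had 0.758, 5.91 and 1.27 TPM. Like IGFBP5, both genes were highest in FP2, as were most other genes of this list. FP2 was the highest library for 58.6% of the 6986 genes with a symbol above 10 TPM.

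Genes that act on IGF2 RNA or its locus had the highest median of the pathway lists, 42.9 TPM, with 6 of 7 above 1 TPM. IGF2BP3, a paralogue of IGF2BP1 that binds IGF2 mRNA, had 296, 372 and 334 TPM. LIN28A, an RNA-binding protein of early embryos, had 0.992, 0.603 and 0.184 TPM. Below the receptor, 8 of 9 adaptors were above 1 TPM, with GRB2 highest at 88.7 ± 10.3 TPM and IRS4 at 0 reads in all libraries. All 18 kinases, phosphatases and targets in the table were above 1 TPM, with EIF4EBP1, a translation repressor under mTOR control, highest at 339 ± 49.3 TPM and RICTOR, a subunit of an mTOR complex, lowest at 9.20 ± 1.92 TPM. The transcription factors FOXO1 and FOXO3, which the pathway holds out of the nucleus, had 12.6 ± 1.78 and 9.60 ± 0.649 TPM (SD, n = 3 for each mean).

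Peaks of each mark were counted as reproducible where q was under 0.05 and 50% of either peak was shared between the replicates. The positions, lengths and number of these peaks are those of the replicate 1 peaks. A reproducible H3K4me3 peak lay within 1 kb of the transcription start site (TSS) of 7 of the 8 members, where 67.7% of all models and 88.2% of those above 1 TPM had one. The same 7 had an H3K27ac peak there, where 71.5% of all models and 12159 of 14158 genes with a symbol did. The IGF1 model had neither.

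Both receptors carried both marks at the TSS, with H3K4me3 near the median of genes of like RNA level. H3K4me3 at the TSS of IGF1R was enriched 47.5-fold and 48.9-fold over input in replicates 1 and 2, and at that of IGF2R 59.5-fold and 59.6-fold. H3K27ac was enriched 45.9-fold and 40.9-fold at IGF1R and 39.4-fold and 28.0-fold at IGF2R. Among genes within 2-fold of the level of IGF1R that had a peak, 44.3% had weaker H3K4me3 at the TSS (median 51.9-fold) and 79.4% weaker H3K27ac (median 29.3-fold). For IGF2R, 59.1% had weaker H3K4me3 (median 54.4-fold) and 57.3% weaker H3K27ac (median 31.0-fold).

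IGFBP2 had the highest H3K4me3 of the members at its TSS, 74.4-fold and 70.6-fold, with H3K27ac of 33.5-fold and 25.7-fold. IGFBP3 had H3K4me3 of 53.2-fold and 65.3-fold, with H3K27ac of 23.4-fold and 27.1-fold. IGFBP5 had H3K4me3 of 53.2-fold and 52.3-fold, with H3K27ac of 44.7-fold and 32.3-fold. H3K4me3 at these 3 genes, between 52.3-fold and 74.4-fold, thus overlapped that at the receptors, between 47.5-fold and 59.6-fold, although the mean RNA level of IGFBP5, the lowest of the 3, was 13.9 times that of IGF2R.

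**Figure D3:**
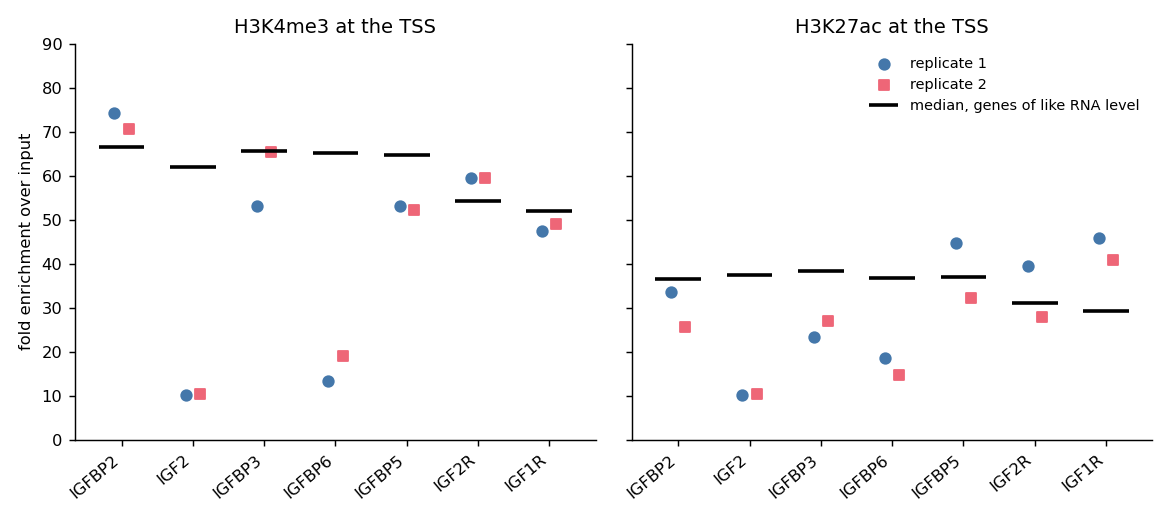
Fold enrichment over input of H3K4me3 (left) and H3K27ac (right) within 1 kb of the TSS, in replicates 1 and 2, for members in order of RNA level. Black lines are the medians of genes with RNA above 1 TPM within 2-fold of the member. IGF2 (10.1-fold and 10.4-fold H3K4me3) and IGFBP6 (13.4-fold and 18.99-fold) lie far below their lines at 62.0-fold and 65.1-fold.

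IGF2 and IGFBP6 had much weaker H3K4me3 at their TSS. IGF2 had 10.1-fold and 10.4-fold H3K4me3 and 10.2-fold and 10.4-fold H3K27ac, against medians of 62.0-fold and 37.5-fold for genes of like RNA level. Of those genes with a peak, 12.4% had weaker H3K4me3. The replicate 2 peak at this TSS was also shared with a further replicate 1 peak. The TSS of the short IGF2 model is where the model begins, and a stronger H3K4me3 peak lay 3.84 kb upstream, at scaffold00017:51457810-51465682, enriched 26.6-fold and 29.4-fold over 7873 bp. H3K27ac beside it reached 18.2-fold and 21.8-fold. IGFBP6 had 13.4-fold and 18.99-fold H3K4me3 with 18.5-fold and 14.6-fold H3K27ac. Of the genes of like level with a peak, 7.10% had weaker H3K4me3. The nearest H3K4me3 peaks that were stronger in both replicates lay 33.8 kb upstream, at SPRYD3 (29.6-fold and 38.1-fold), and 44.7 kb downstream (39.7-fold and 38.3-fold).

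The windows of 200 kb on either side of the TSS held 170 distinct H3K4me3 peaks and 199 distinct H3K27ac peaks for the 7 members other than IGF1. With the window of the IGF1 model the numbers were 176 and 213. The number per member varied from 2 H3K4me3 peaks for IGF1R to 95 for IGF2, around a median of 18 for genes with a symbol. The ends of that order were also apart in each replicate, with 4 and 2 peaks near IGF1R and 99 and 92 near IGF2.

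**Figure D4:**
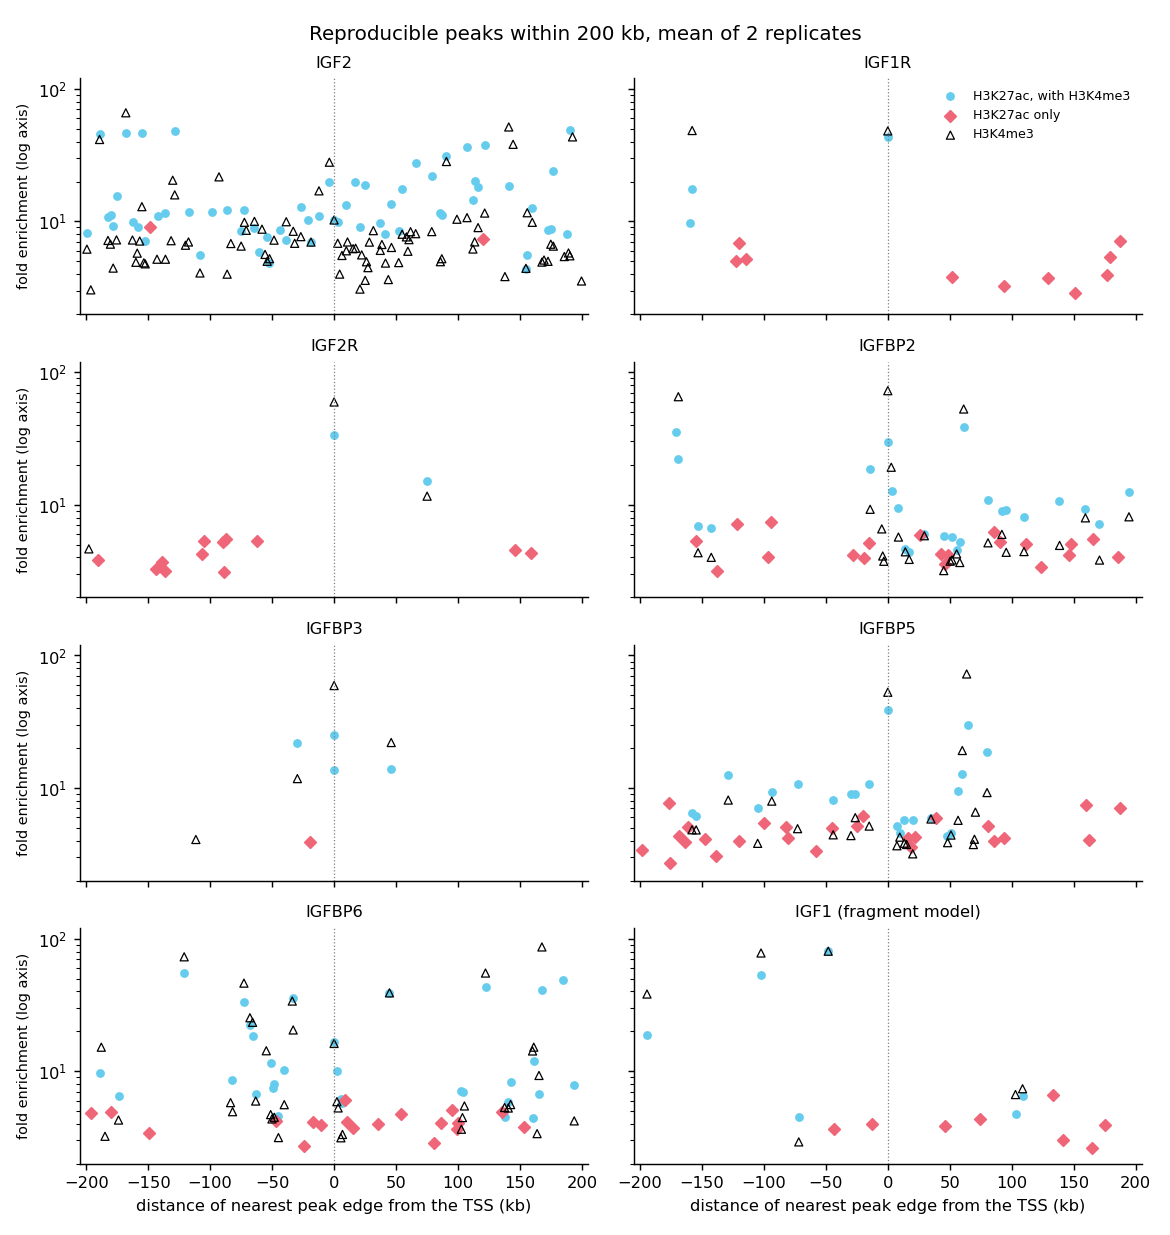
Mean fold enrichment (log axis) of each reproducible peak against the distance of its nearest edge from the TSS in kb, negative upstream, for the 8 models in the table. The IGF2 window is filled with peaks of both marks, while IGF1R, IGF2R and IGFBP3 show a strong pair of marks at the TSS and few other H3K4me3 peaks.

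The IGF2 neighbourhood was among the windows most covered by H3K4me3. Peaks of this mark covered 75.6% of its window and those of H3K27ac 82.5%, against medians of 5.52% and 8.15% for genes with a symbol. By H3K4me3 coverage IGF2 ranked 2 of 14158, behind EHD1 at 77.9%. Genes with a like number of gene starts nearby had a median of 14.7% (n = 2263). The window held 10 other gene starts, while that of EHD1 held 29. Of the 30 windows of highest coverage, 21 lay around genes of scaffold00020, such as CDC42BPG at 75.3% and ATG2A at 75.2%, and 2 on scaffold00029. The other 7, that of IGF2 included, lay on scaffold00017, around SLC25A22 (74.4%), GATD1 (73.7%), TH (73.7%), CEND1 (73.4%), TALDO1 (73.1%) and PHLDA2 (72.6%), of which TH is in the IGF2 window.

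The peaks near IGF2 were long and mostly of moderate height. H3K4me3 peaks there had a median length of 1778 bp, against 790 bp for all reproducible peaks, and a median enrichment of 6.73-fold, against 4.69-fold. The longest was 15938 bp, and 18 of the 95 exceeded 10-fold in the mean of the replicates. Some of these means rested on a replicate 2 peak that 2 replicate 1 peaks shared. The peak at scaffold00017:51300526-51309547, for example, had 7.19-fold and 69.2-fold. The H3K4me3 peaks lay on both sides, 42 upstream, 52 downstream and 1 at the TSS. Their number and lengths are those of replicate 1, of which up to 5 peaks shared 1 replicate 2 peak.

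Genes in the IGF2 window had very different RNA levels. TNNT3, a fast skeletal muscle troponin, had 6360, 4936 and 6928 TPM and starts 161 kb away. LOC116419919, at 96.4 kb on the same strand, had 3750, 3235 and 2602 TPM and H3K4me3 of 28.3-fold at its TSS. CD81, a membrane protein gene, had 463, 379 and 324 TPM, and MRPL23, a mitochondrial ribosomal protein gene, 191, 145 and 127 TPM. TSSC4 had 60.2 ± 12.6 TPM and ASCL2, a transcription factor gene, 13.9 ± 2.12 TPM. TSPAN32 had 5.49 ± 2.33 TPM (SD, n = 3 for each mean). TH, the tyrosine hydroxylase gene, had 5.03, 2.33 and 0.561 TPM with 9.94-fold H3K4me3, and LOC116420084 had 0 reads with 8.51-fold. LOC116419922, which shares its start peak with TNNT3, had 900, 776 and 1012 TPM. None of these neighbours with reads had the FP1-low, FP2-high pattern of IGF2.

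IGFBP2 and IGFBP5 are neighbours that point toward each other, with their TSS 65.8 kb apart, so that their windows share most of their peaks. The window of IGFBP2 held 27 H3K4me3 and 44 H3K27ac peaks, and that of IGFBP5 held 26 and 48. IGFBP2 RNA was 23.0, 11.5 and 28.5 times IGFBP5 RNA, and their marks at the TSS differed by less. An H3K27ac peak 14.1 kb upstream of IGFBP2 was enriched 18.1-fold and 19.4-fold, and the H3K4me3 peak at the same place 7.71-fold and 10.7-fold. Within IGFBP2, 2.78 kb past the TSS, a further H3K4me3 peak had 16.6-fold and 21.7-fold. RPL37A, a ribosomal protein gene 172 kb from IGFBP2, had 2631 ± 663 TPM (SD, n = 3), and the testis gene TNP1, 190 kb from IGFBP5, had 0 reads.

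The IGFBP6 window was gene-rich, with 13 other starts against a median of 5. It held 37 H3K4me3 peaks covering 22.0% of the window, where genes with a like number of starts had a median of 18.9%. SOAT2, the next gene on the same strand at 4.95 kb, had 0.624, 0.632 and 0.657 TPM. RARG, a retinoic acid receptor gene, had 299 ± 18.2 TPM, EIF4B, a translation factor gene, 266 ± 40.8 TPM and the keratin gene KRT18 90.1 ± 11.1 TPM (SD, n = 3 each). The other named neighbours, SPRYD3, ZNF740, CSAD, ITGB7 and TNS2, had means between 22.6 and 49.7 TPM, and 4 LOC models between 0.059 and 36.1 TPM.

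Near IGFBP3, IGF1R and IGF2R, H3K4me3 peaks were few. Without the demand for both replicates, replicates 1 and 2 held 5 and 9 near IGFBP3 and 7 and 10 near IGF2R. IGFBP3 had 4, of which those at its own TSS and at IGFBP1 (19.4-fold and 24.7-fold) were the strongest, and a peak 29.6 kb upstream had 11.6-fold and 11.9-fold with 25.8-fold and 17.5-fold H3K27ac. IGF2R had 3, including 10.2-fold and 13.0-fold at an intron 75.0 kb inside the gene. IGF1R had 2, its own and that of SYNM, an intermediate filament gene 158 kb away with 8.72, 14.6 and 8.22 TPM. MAS1, upstream of IGF2R, had 0, 0.033 and 0.060 TPM and no H3K4me3 peak at its TSS. Models known only by a LOC identifier in these 3 windows had at most 0.047 TPM on average, and those in the IGFBP5 window at most 0.376 TPM.

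**Figure D5:**
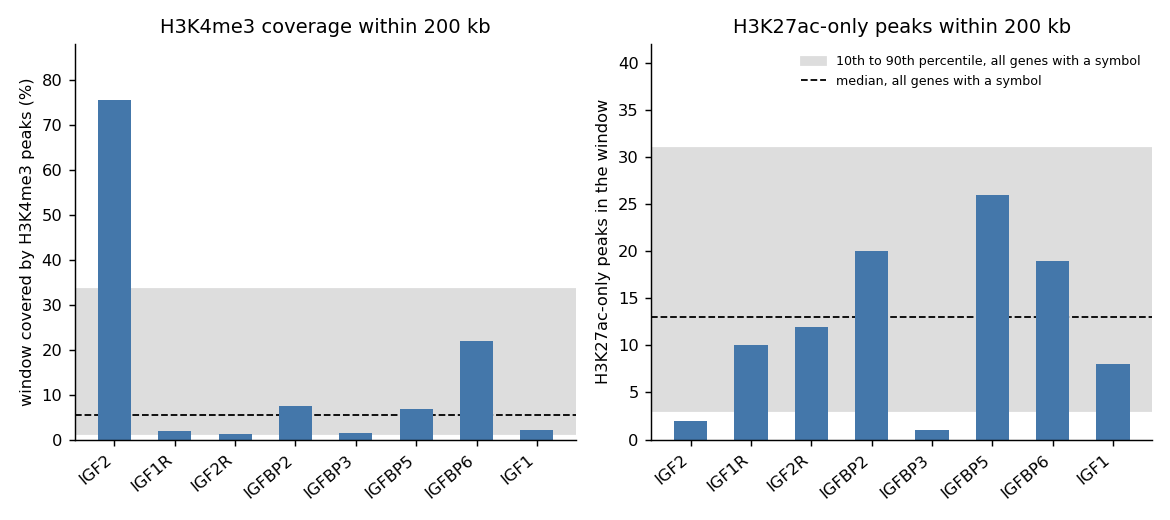
Percentage of the window of 200 kb on either side of the TSS covered by H3K4me3 peaks (left) and number of H3K27ac-only peaks in it (right) for the 8 models. Dashed lines are medians and grey bands the 10th to 90th percentiles of genes with a symbol. IGF2 stands at 75.6% coverage with 2 H3K27ac-only peaks, and IGFBP5 at 6.86% with 26.

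H3K27ac peaks that shared no base with H3K4me3, the class used for candidate enhancers, were found near all 8 models, where 97.7% of all models had at least 1. The 7 members other than IGF1 had 72 distinct ones, of which 42 lay between gene models (80 and 50 with the IGF1 model). Their median enrichment of 4.19-fold was close to the 4.22-fold of all 69124 peaks of this class. IGFBP5 had 26 and IGFBP2 20, against a median of 13 for genes with a symbol, and 82.9% and 69.8% of those genes had fewer. Most of these were the same peaks, because the windows of IGFBP5 and IGFBP2 overlap. Summed over the 8 models the counts gave 98 peaks, of which 80 were distinct. IGFBP6 had 19, IGF2R 12, IGF1R 10, IGF2 2 and IGFBP3 1. Peaks with the member as nearest TSS were also counted, at any distance, so that peaks outside the window could enter. The order then changed, with 9 for IGFBP5 and IGF1R, 4 for IGFBP2, 2 for IGFBP6, 1 for IGFBP3 and 0 for IGF2 and IGF2R.

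The strongest H3K27ac-only peaks of IGFBP5 and IGFBP2 reached 7.63-fold and 7.38-fold. That of IGFBP5 lay 176 kb upstream within TNP1, at scaffold00001:15358243-15358715, with 8.36-fold and 6.91-fold in replicates 1 and 2. The strongest of IGFBP2 lay 94.0 kb upstream, at scaffold00001:15694890-15695562, with 7.84-fold and 6.92-fold, and is also in the IGFBP5 window. A further shared peak, at scaffold00001:15722740-15723358, had 7.15-fold and 7.06-fold. Next for IGFBP2 was a peak 85.8 kb downstream, with 6.19-fold in both replicates. It is also in the IGFBP5 window, upstream of the IGFBP5 TSS and closer to that TSS than to the TSS of IGFBP2.

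For IGF1R, 7 of 10 H3K27ac-only peaks lay in its own introns, and the strongest, 187 kb past the TSS at scaffold00038:13064124-13064689, had 9.03-fold and 5.26-fold. The next were 120 kb upstream (6.76-fold and 7.02-fold) and 180 kb past the TSS (5.12-fold and 5.63-fold). For IGF2R, 10 of 12 lay upstream, none lay in the gene itself, and for 0 of them was IGF2R the nearest TSS. The strongest, in MAS1 87.4 kb upstream, had 5.16-fold and 5.78-fold. Those 105 and 62.6 kb upstream had 6.16-fold and 4.54-fold, and 6.96-fold and 3.63-fold.

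IGFBP6 had its strongest H3K27ac-only peak 8.50 kb past the TSS in SOAT2 (6.96-fold and 5.23-fold). The next were 94.7 kb downstream in CSAD (4.06-fold and 6.16-fold) and 180 kb upstream (6.16-fold and 3.66-fold). The single peak of IGFBP3, 19.5 kb upstream, had 3.31-fold and 4.47-fold. The pair near IGF2 lay 148 kb upstream (6.93-fold and 11.1-fold, with a replicate 2 peak that a further replicate 1 peak also overlapped) and 120 kb downstream (8.62-fold and 6.05-fold). The count near IGF2 depended on the class rule. It was 16 where no single H3K4me3 peak could share 50% or more of the H3K27ac peak. Under that rule several H3K4me3 peaks together could still cover more of it. The count was 8 where the replicates had to share 50% of both lengths. In replicate 1 alone and replicate 2 alone, IGF2 had 1 and 3 H3K27ac-only peaks and IGFBP3 had 6 and 4. The counts of IGFBP3 and IGF2 are thus the lowest of the members under the main rule, and the IGF2 window differs from that of IGFBP3 in that 63 H3K27ac peaks lay there, against 5.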

How the data were processed

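For ChIP, the authors used cutadapt (1.9.1) for trimming, Bowtie2 (2.3.5.1) for alignment to their own dunnart assembly, Picard (2.23.1) for duplicates and MACS2 (2.1.1) for peaks of each replicate over its input. The deposited peak lists give fold enrichment, a ratio, and -log10 of p-values and q-values. Their q-value was thresholded again. The authors aligned RNA reads with HISAT2 (2.21) and made counts with featureCounts of Subread (2.0.1), reversely stranded, on Tasmanian devil models moved by Liftoff. The deposited counts are unscaled, and 11 genes broken over 2 lines were left out. Depth behind single peaks is unknown.

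TPM was computed over 21692 models. Windows run from the TSS, the outermost exon end, to the nearest peak edge, and peaks were intersected with bedtools (2.31.1). The library columns carry no replicate number. Members and lists were chosen with earlier results of these data known. Named genes are the members, their TSS peaks and 3 strongest H3K27ac-only peaks, genes starting within 200 kb, the highest, lowest and any under 1 TPM of each pathway list, and the 3 closest to IGF2. The windows of EHD1, CDC42BPG and ATG2A, those named on the scaffold of IGF2, the marker genes, the peaks upstream of IGF2, IGFBP2, IGFBP3 and IGFBP6 and those inside IGFBP2 and IGF2R were named after their values were seen. RefSeq (ASM4859323v1) served for gene order only, and 13014 of 14158 symbols matched. Peak matching and TPM were tested on simulated data. edgeR (4.0.16) gave the TMM factors of an alternative scaling. Python (3.11.15) and R (4.3.3) were used.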

Additional observations from a re-analysis of the deposited data

How the results depend on the processing

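Scaling by TMM moved no summed level by as much as the SD between libraries, and left the order of the members as it was. TPM over genes with a symbol only gave 7091 TPM for all members, against 5889 TPM, and 6119 TPM for binding proteins, against 5083 TPM, because the total then holds fewer genes. Leaving out each library gave 5767 to 6131 TPM for all members, 4947 to 5169 TPM for binding proteins, 612 to 929 TPM for IGF2 and 22.0 to 33.3 TPM for receptors. A minimum of 10 TPM left 5 of 7 expressed members. The 7 members with H3K4me3 at the TSS stayed 7 under each alternative tried. At any distance, inside the window or not, 32 H3K27ac-only peaks had a member, the IGF1 model included, as nearest TSS. A window of 100 kb held 101 H3K4me3 peaks, against 176, and 40 H3K27ac-only peaks, against 80. Without the window of the IGF1 model, an alternative chosen after seeing the data, there were 170 and 72. With 1 replicate alone there were 207 to 210 H3K4me3 and 100 to 101 H3K27ac-only peaks. No paired analysis was possible because no result comes from a test between groups. Levels of IGF2 rest on a model of 692 bp, and 2 ChIP pools and 3 RNA pools limit every statement on spread.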
